A study of Mus musculus with 6 samples.

Results

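The protocadherin genes were examined in RNA from mouse synaptoneurosomes, a filtered brain fraction enriched in pinched-off synaptic terminals. Every gene of the deposited count table whose symbol begins with Pcdh was taken, which gave 70 of 21958 protein-coding genes. Of these, 58 belong to the clustered families, with 15 Pcdha, 22 Pcdhb and 21 Pcdhg genes, and 12 are non-clustered. The table listed 3 symbols in more than 1 row. By gene identifier, the second Pcdha4 entry is the read-through gene Gm42416 and the second Pcdhga8 entry is Pcdhgc4 in Gencode vM21. The Pcdha11 entry with the identifier ENSMUSG00000007440 starts nearest to RefSeq Pcdha10. They are called Gm42416, Pcdhgc4 and Pcdha10 here.

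All 6 libraries came from the hippocampus and adjacent cortex of FVB mice aged 6 to 8 weeks, and each preparation pooled several mice and was divided into aliquots. Whether the 3 replicates came from separate animals is not stated, so p-values measure the spread between these libraries. The tests share information on that spread across genes, so a gene's p-value does not rest on its own replicates alone. The polyribosome group (3 libraries) held RNA from the light and heavy polyribosome fractions of a sucrose gradient, after the NMDA receptors were stimulated with 50 µM NMDA and 10 µM glutamate for 30 s, blocked with 120 µM of the antagonist APV, and the material was incubated for 20 min. The total group (3 libraries) held total RNA from unstimulated synaptoneurosomes. The groups differed in both stimulation and fraction, so the effects of the treatment and of polyribosome association cannot be told apart.

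Protocadherins are cadherin-related adhesion proteins of the plasma membrane. The clustered families lie in tandem on a single chromosome, and each alpha or gamma gene has its own large variable exon, which carries the extracellular and transmembrane parts and is spliced to constant exons shared within the family, whereas the beta genes stand alone. Individual neurons express different combinations of clustered isoforms chosen by promoter, and matching isoforms bind each other across cells, which is known to serve self-recognition of dendrites and axons. The C-type genes at the ends of the alpha and gamma families are chosen less randomly. The non-clustered delta protocadherins are expressed in restricted cell groups and act in adhesion, axon growth and synapse remodelling.

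In GRCm38 the 58 clustered genes lay on chromosome 18 between positions 36930184 and 37841873, all on the plus strand. The 34 Pcdha and Pcdhg genes with over 500 unshared exon bases had 2139 to 3247 exon bases that no other gene shares, between 40.1 and 60.5% of their exons. Pcdha4 had 93 such bases and Gm42416 had 0. Of the exons of each Pcdhb gene at least 90.3% were unshared, and the non-clustered genes shared none. How reads on shared or antisense exons were assigned is not given in the sources used here. Pcdha4 and Gm42416, with almost no unshared bases, had 0 or 1 count in each library. Almost no reads on shared exons were thus counted for these genes. For the other Pcdha and Pcdhg genes, the part of the counts that falls on variable exons was not tested. Exons of antisense genes overlapped 5 Pcdha, 1 Pcdhb, 8 Pcdhg and 3 non-clustered genes. The overlap was longest in Pcdhga10, with all 2613 unshared bases, followed by 2446 bases of Pcdha11, 1927 of Pcdhb12, 1513 of Pcdhgc3 and 1381 of Pcdhga11, and it was 436 bases in Pcdh8.

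Over all genes of the table, the polyribosome libraries held 5294482 to 7361580 counts and the total libraries 1044955 to 3738022, total replicate 3 being the shallowest. The protocadherin genes held 24576 to 33762 of these counts on polyribosomes and 3957 to 14652 in total RNA. The 70 genes took 0.459, 0.471 and 0.464% of the counts in polyribosome replicates 1 to 3, and 0.392, 0.415 and 0.379% in total replicates 1 to 3. Neuronal and glial markers were detected in every library, with summed excitatory neuron markers of 4881 to 7029 CPM (counts scaled to the TMM-adjusted library size) and summed astrocyte markers of 34390 to 49070 CPM. In such bulk RNA, fewer cells or terminals of a type and less RNA in each cannot be told apart.

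Levels per length divide all counts of a gene by its unshared exon bases, and would be too high where reads on shared exons were counted. Per kilobase of unshared exon, the C-type gamma genes Pcdhgc3 and Pcdhgc5 had the highest levels of the protocadherin genes in both groups. This order rests on that division. By mean CPM, Pcdh1 (527 in total RNA and 817 on polyribosomes) stood above Pcdhgc3 (240 and 423). Pcdhgc3 averaged 93.4 CPM per kb in total RNA and 165 on polyribosomes, and Pcdhgc5 averaged 76.5 and 127. Pcdh1 followed with 62.3 and 96.6 CPM per kb, and Pcdh9 with 59.7 and 53.1. Pcdhac2, the C-type alpha gene, led its family at 23.8 and 29.4 CPM per kb. The median level in total RNA was 3.997 CPM per kb over 13 Pcdha genes, 4.28 over 22 Pcdhb genes, 7.62 over 21 Pcdhg genes and 16.9 over 12 non-clustered genes. The Pcdhb genes spanned 0.419 CPM per kb in Pcdhb1 to 8.17 in Pcdhb3 in total RNA.

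**Figure D1:**
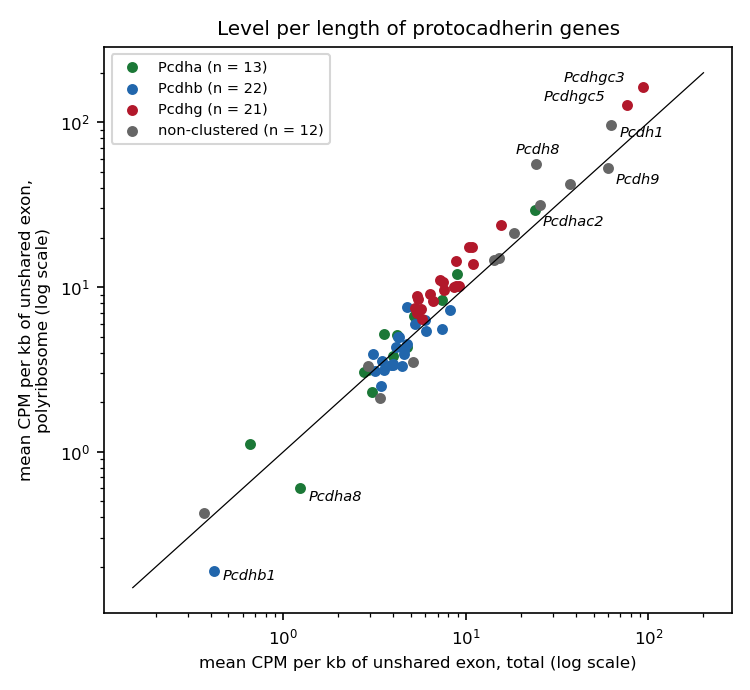
Mean level per kilobase of unshared exon in the 3 total libraries (x axis, CPM per kb, log scale) against the 3 polyribosome libraries (y axis, same unit), 1 point per gene with over 500 unshared bases, coloured by family, with the line of equality. Pcdhgc3 and Pcdhgc5 lie at the upper end and above the line, and the Pcdhg points run above it while the Pcdhb points scatter around it.

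The first comparison asked which protocadherin mRNAs were more or less abundant on polyribosomes after stimulation than in unstimulated total RNA. In 65 genes with enough counts (12 Pcdha, 21 Pcdhb, 21 Pcdhg, 11 non-clustered), the Pcdhg genes stood highest, the Pcdha and non-clustered genes were spread on both sides of zero and the Pcdhb genes lay around zero. At an adjusted p under 0.01 in edgeR's quasi-likelihood test without a block, 1 protocadherin gene, Pcdhgc3, was higher and 0 were lower, where 0.71% of all 12255 genes tested were higher and 2.36% lower. At an unadjusted p under 0.05, 16 protocadherin genes were higher and 4 lower, against 15.4 and 17.1% of all genes. DESeq2 called 3 higher and 0 lower, against 1.92 and 2.22% of the 16736 genes it fitted. With the replicate number as a block, which pairs the libraries of one preparation, 12 protocadherin genes were higher (18.5% of the 65) and 2 lower (3.08%), against 11.8 and 13.2% of all genes.

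The log2 fold changes, positive where the gene was higher on polyribosomes, had a median of 0.53 over the 21 Pcdhg genes, 0.15 over the 12 Pcdha genes, -0.07 over the 21 Pcdhb genes and 0.12 over the 11 non-clustered genes, beside 0.00 over all genes tested. All 21 Pcdhg genes had a positive value, as did 8 of 12 Pcdha, 9 of 21 Pcdhb and 7 of 11 non-clustered genes, where 50.1% of all genes did. Clustered genes together had a median of 0.25, a mixture of the 3 families. The median Pcdhg change exceeded the median Pcdhb change by 0.50, 0.54 and 0.56 in pairs 1 to 3, and the median Pcdha change by 0.30, 0.40 and 0.31. Over the non-clustered genes it was larger by 0.23, 0.65 and 0.34. These differences describe 3 pairs of libraries and were given no test, since genes of a family are not replicates.

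**Figure D2:**
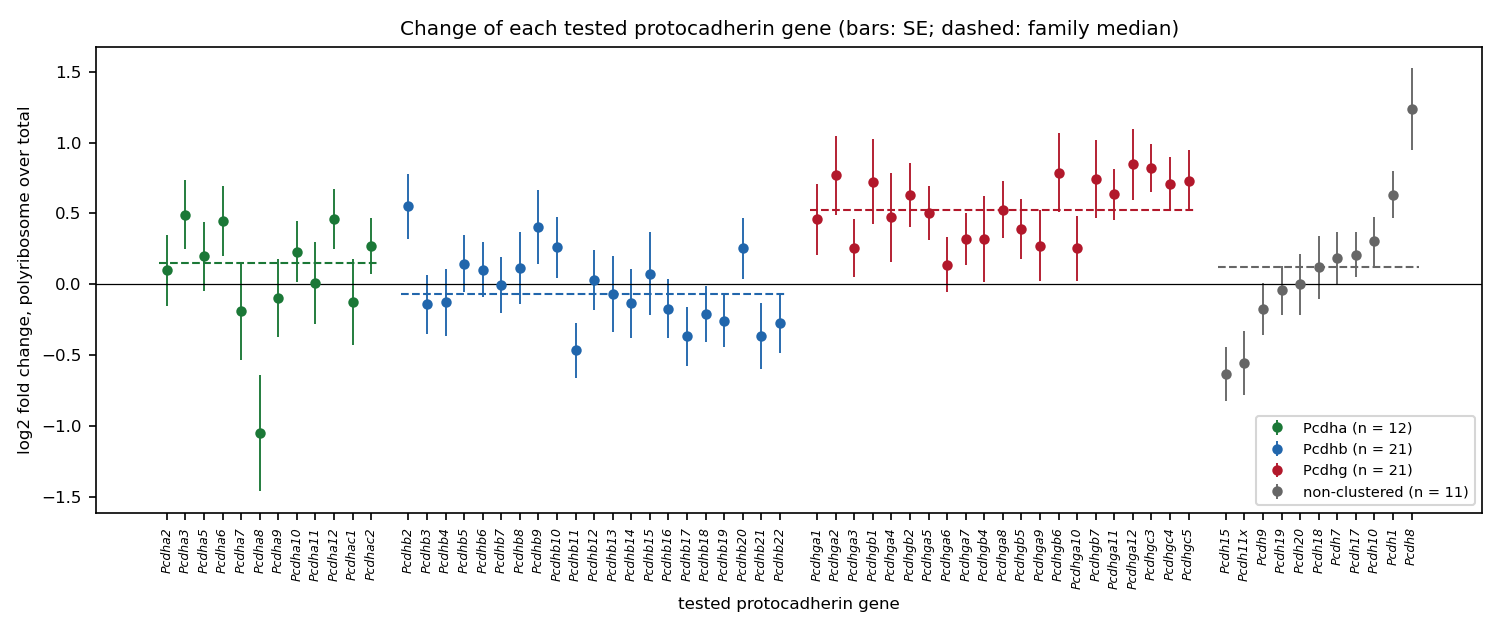
Log2 fold change of polyribosome over total (y axis) for each of the 65 tested protocadherin genes (x axis, clustered genes in their order along the chromosome, non-clustered genes by value). Points are edgeR estimates with their standard errors and dashed lines the family medians, which lie at 0.15, -0.07, 0.53 and 0.12 from left to right. All 21 Pcdhg points are above 0.

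The Pcdhg mRNAs together were more abundant in polyribosome than in total RNA in every pair. Their summed level was 768, 821 and 953 CPM in total replicates 1 to 3 and 1162, 1207 and 1610 CPM on polyribosomes, with no overlap between the groups and replicate 3 highest in both. The log2 ratio of the sums was 0.60, 0.56 and 0.76 in pairs 1 to 3, a mean of 0.64 ± 0.11 (SD, n = 3). In 18 of 21 Pcdhg genes every pair was positive, and in 0 every pair was negative. The share of all genes with the same sign in every pair was not counted. Such numbers therefore have no background, here and for the other families. All polyribosome libraries lay above all total libraries in 8 Pcdhg genes, against 17.4% of all genes. Of the 21 genes, 10 (47.6%) were called higher with the block. The 12 Pcdhga genes had a median of 0.46 and the 6 Pcdhgb genes one of 0.68.

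Pcdhgc3, the most abundant gamma mRNA here and a C-type gene, had 237, 236 and 246 CPM in total replicates 1 to 3 and 443, 362 and 465 CPM on polyribosomes. The groups were well apart, and the total libraries were close to each other. Its log2 fold change was 0.82 (SE 0.17, adjusted p = 0.00843 in edgeR's quasi-likelihood test), a 1.77-fold difference. It was positive in 3 of 3 pairs. Each of the 6 fits that left out a single library put it outside the threshold, with adjusted p from 0.012 to 0.0545. The log2 fold changes in them ranged from 0.75 to 0.92. These fits called fewer genes of any kind, with 0 to 0.483% of all genes higher, against 0.71% with all 6 libraries.

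Pcdhgc5, a C-type gene whose protein associates with GABA receptors at synapses, had 161, 228 and 213 CPM in total RNA and 241, 328 and 429 CPM on polyribosomes. The groups did not overlap, although the highest total library came close to the lowest polyribosome library. Its log2 fold change was 0.73 (SE 0.22, adjusted p = 0.0359 without the block and 4.21e-06 with it). Pcdhgc4, the C-type gene required for neuronal survival, had 32.5, 28.5 and 33.6 CPM in total RNA and 45.4, 45.6 and 62.4 CPM on polyribosomes, again without overlap. Its log2 fold change was 0.70 (SE 0.19, adjusted p = 0.0264 without the block and 0.000176 with it).

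Outside the C-type genes, Pcdhga12 had the highest value of the gamma family. It had 20.9, 29.1 and 42.2 CPM in total RNA and 44.0, 44.3 and 67.9 CPM on polyribosomes, so that total replicate 3 nearly reached the lowest polyribosome library. Its log2 fold change was 0.85 (SE 0.25, adjusted p = 0.0359 without the block and 5.99e-06 with it). Pcdhga6 had the lowest, 0.14 (SE 0.19, adjusted p = 0.662), with 25.8, 22.1 and 24.0 CPM in total RNA and 23.0, 25.3 and 31.5 CPM on polyribosomes. Its groups overlapped. The other genes called with the block were Pcdhga2, Pcdhga11, Pcdhgb1, Pcdhgb2, Pcdhgb6 and Pcdhgb7, with blocked log2 fold changes of 0.66, 0.58, 0.58, 0.63, 0.66 and 0.67.

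Within the gamma family, Pcdhgc3 made up 30.9, 28.7 and 25.9% of the CPM in total replicates 1 to 3 and 38.1, 30.0 and 28.9% on polyribosomes, a larger share in every pair although the groups overlapped. Pcdhgc5 made up 20.9, 27.8 and 22.3% and then 20.7, 27.2 and 26.7%, with pairs that differed in direction. The share of Pcdhga6, chosen for its lowest fold change, was smaller on polyribosomes in every pair and without overlap. It was 3.36, 2.69 and 2.52% in total RNA and 1.98, 2.10 and 1.96% on polyribosomes. The shares of Pcdhga7, Pcdhga9, Pcdhga10 and Pcdhgb5 were likewise smaller in every pair and without overlap. These shares were given no test. The 18 genes outside the C-type were also higher as a sum, at 338, 328 and 460 CPM in total replicates 1 to 3 and 432, 471 and 654 CPM on polyribosomes. Their log2 ratio was 0.46 ± 0.09 (SD, n = 3 pairs), so that the family's difference was not limited to the C-type genes.

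**Figure D3:**
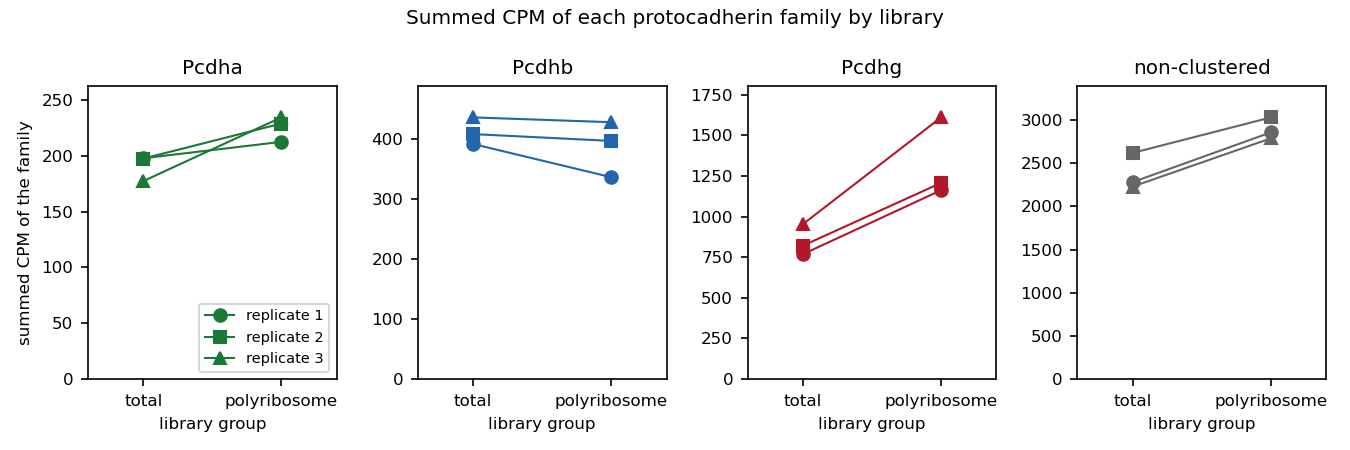
Summed CPM of each family (y axis, from 0) in the total and polyribosome libraries (x axis), 1 line per same-numbered pair. The Pcdhg lines run upward in all 3 pairs, from between 768 and 953 CPM to between 1162 and 1610 CPM, the Pcdha and non-clustered lines run upward less steeply, and the Pcdhb lines slope slightly downward.

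The Pcdha family showed a smaller difference. Its sum was 198, 198 and 177 CPM in total replicates 1 to 3 and 213, 229 and 234 CPM on polyribosomes, without overlap, and the log2 ratio was 0.24 ± 0.15 (SD, n = 3 pairs). None of its 12 tested genes passed the threshold, without or with the block, and 1 was higher and 1 lower at an unadjusted p under 0.05. In 6 of 12 genes every pair was positive, and in 1 every pair was negative.

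Pcdhac2, a C-type gene that made up 37.4 ± 8.63% of the alpha CPM in total RNA, had 81.0, 86.4 and 48.9 CPM there and 91.7, 96.1 and 79.7 CPM on polyribosomes. The groups overlapped, and total replicate 3 was the lowest library. Its log2 fold change was 0.27 (SE 0.20, adjusted p = 0.363). Pcdhac1, the other alpha C-type gene, gave -0.12 (SE 0.30, adjusted p = 0.816), with 10.7, 9.71 and 1.92 CPM in total RNA and 7.71, 8.29 and 8.23 CPM on polyribosomes. The value for total replicate 3 rests on 2 counts.

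Pcdha8 had the lowest value of all protocadherin genes, -1.05 (SE 0.41, adjusted p = 0.0922), and did not pass. It had 3.97, 2.34 and 2.88 CPM in total RNA, the last from 3 counts, and 1.49, 1.96 and 1.03 CPM on polyribosomes. All polyribosome libraries lay below all total libraries, as they did in 18.9% of all genes tested. Pcdha3 had the highest alpha value, 0.49 (SE 0.24, adjusted p = 0.176), with 8.20, 11.4 and 6.71 CPM in total RNA and 13.5, 14.5 and 10.3 CPM on polyribosomes, and the groups overlapped.

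The Pcdhb family, whose genes have no shared constant exons, lay around zero. Its sum was 391, 408 and 435 CPM in total replicates 1 to 3 and 336, 396 and 427 CPM on polyribosomes, with overlapping groups and a log2 ratio of -0.10 ± 0.11 (SD, n = 3 pairs). None of the 21 tested genes passed without or with the block, and 1 was higher and 1 lower at an unadjusted p under 0.05. In 15 of them the pairs differed in sign. Every pair was positive in 3 genes and negative in 3.

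Pcdhb17, the most abundant beta mRNA by CPM, had 33.3, 27.1 and 43.1 CPM in total RNA and 21.5, 27.1 and 29.2 CPM on polyribosomes. The groups overlapped, and the log2 fold change was -0.37 (SE 0.21, adjusted p = 0.232). Pcdhb11 had the lowest beta value, -0.47 (SE 0.19, adjusted p = 0.109), with 22.6, 19.4 and 17.3 CPM in total RNA and 15.8, 14.9 and 13.2 CPM on polyribosomes. Pcdhb2 had the highest, 0.55 (SE 0.23, adjusted p = 0.114), with 17.9, 13.7 and 8.63 CPM in total RNA and 18.9, 19.9 and 25.5 CPM on polyribosomes. In these last genes the groups did not overlap.

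Among the non-clustered genes, the largest positive value belonged to Pcdh8 (arcadlin), a delta-2 protocadherin induced by neuronal activity and known to act in the removal of N-cadherin from the synaptic surface. Pcdh8 lies on chromosome 14 from 79766775 to 79771312, on the minus strand. It had 59.8, 95.1 and 136 CPM in total replicates 1 to 3 and 170, 177 and 321 CPM on polyribosomes, so that every polyribosome library lay above every total library and replicate 3 was highest in both groups. The log2 fold change was 1.24 (SE 0.29, adjusted p = 0.0141), a 2.36-fold difference that missed the threshold in edgeR's test without the block. With the block it was 1.21 (adjusted p = 1.52e-13). Without a block, DESeq2 (adjusted p = 0.000568) and edgeR without the expression filter (adjusted p = 9.79e-05) called Pcdh8 as well. The log2 fold change with the block was positive, as in the unpaired fit. Each pair was positive too, with log2 ratios of 1.495, 0.90 and 1.23. Of the 6 unpaired fits that left out a single library, 1 passed (without total replicate 3, adjusted p = 0.00779). Over these fits the adjusted p reached 0.0778, and the log2 fold change ranged from 0.90 without polyribosome replicate 3 to 1.53.

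Pcdh1, a delta-1 protocadherin on chromosome 18 from 38185914 to 38212053, outside the clusters, was the most abundant non-clustered mRNA per length. It had 471, 576 and 532 CPM in total RNA and 767, 819 and 865 CPM on polyribosomes, with a wide gap between the groups. The log2 fold change was 0.63 (SE 0.17, adjusted p = 0.0247 without the block and 1.94e-05 with it). In edgeR it was called with the block and not without it, while DESeq2, without a block, called it (adjusted p = 0.00148).

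The genes with negative values were Pcdh15, Pcdh11x, Pcdh9 and Pcdh19. Pcdh15, a component of the tip links of hair cells, had 48.9, 46.2 and 68.1 CPM in total RNA and 38.2, 34.0 and 30.1 CPM on polyribosomes. All polyribosome libraries lay below all total libraries, and the log2 fold change was -0.63 (SE 0.19, adjusted p = 0.0385 without the block and 0.000431 with it). Pcdh11x, an X-linked delta-1 protocadherin, had 67.3, 64.0 and 53.7 CPM in total RNA and 49.2, 51.1 and 26.6 CPM on polyribosomes. The groups did not overlap, polyribosome replicate 3 was the lowest library, and the log2 fold change was -0.55 (SE 0.22, adjusted p = 0.103 without the block and 0.00133 with it).

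Both genes were thus called lower with the block and not without it. Pcdh9, a delta-1 gene, gave -0.17 (SE 0.18, adjusted p = 0.558), and Pcdh19, the X-linked delta-2 gene mutated in an female-limited epilepsy, gave -0.04 (SE 0.17, adjusted p = 0.889). In both the groups overlapped, at 266 to 420 CPM for Pcdh9 and 128 to 179 CPM for Pcdh19 over all 6 libraries.

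Of the remaining delta-2 genes, Pcdh10, an activity-regulated gene involved in synapse elimination, had 375, 470 and 372 CPM in total RNA and 518, 537 and 448 CPM on polyribosomes, a log2 fold change of 0.30 (SE 0.17, adjusted p = 0.239). Only total replicate 2 reached into the polyribosome range. Pcdh17, which acts in synapse development of the basal ganglia, gave 0.21 (SE 0.16, adjusted p = 0.392), and Pcdh18, a scarce gene with 10.6 to 20.4 CPM, gave 0.12 (SE 0.22, adjusted p = 0.753). The delta-1 gene Pcdh7, which binds in a homophilic way, gave 0.19 (SE 0.18, adjusted p = 0.521), and Pcdh20 gave 0.00 (SE 0.22, adjusted p = 0.998). None of these 5 passed in either fit.

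Among the 4 delta-1 genes the median log2 fold change was 0.01, from -0.55 to 0.63, and among the 5 delta-2 genes it was 0.21, from -0.04 to 1.24. The summed non-clustered level was 2281, 2619 and 2229 CPM in total replicates 1 to 3 and 2857, 3030 and 2788 CPM on polyribosomes, with log2 ratios of 0.32, 0.21 and 0.32 in pairs 1 to 3, although the median gene differed by 0.12. Pcdh1 and Pcdh8 took larger shares of that sum on polyribosomes. Pcdh1 made up 22.2 ± 1.62% of it in total RNA and 28.3 ± 2.36% on polyribosomes, and Pcdh8 made up 4.12 ± 1.79% and 7.77 ± 3.25% (SD, n = 3).

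**Figure D4:**
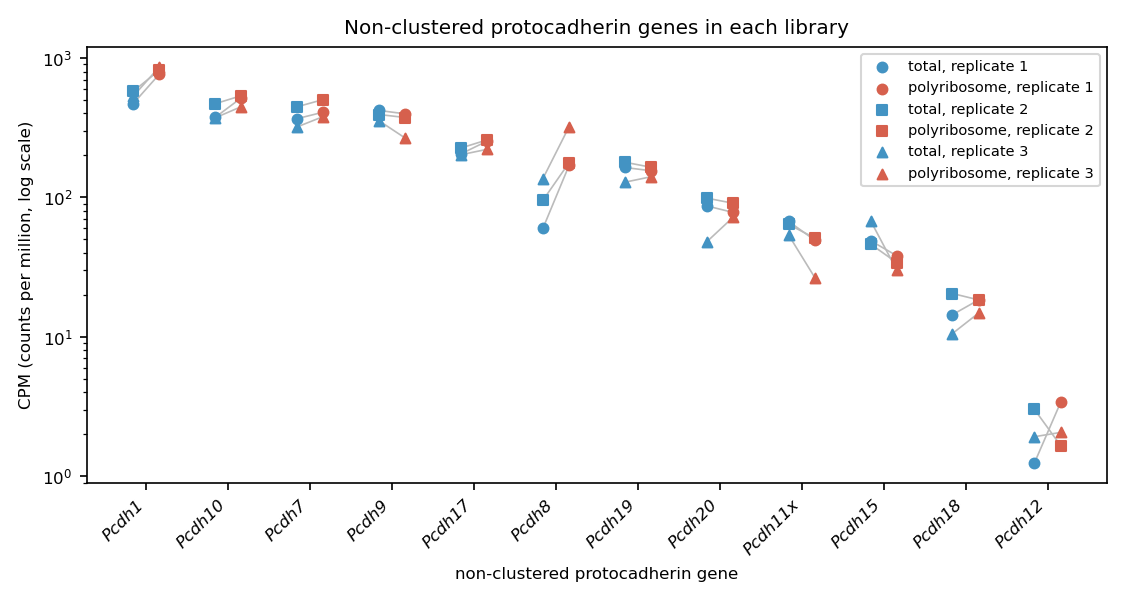
CPM of the 12 non-clustered genes (y axis, log scale) in the 3 total and the 3 polyribosome libraries, joined by pair. Genes are ordered by mean CPM. Pcdh8 and Pcdh1 lie higher on polyribosomes in all 3 pairs without overlap, Pcdh15 and Pcdh11x lie lower in all 3 pairs, and the other genes overlap between the groups.

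The 5 genes below the expression filter were Pcdha1, Pcdha4, Gm42416, Pcdhb1 and Pcdh12. Pcdha1 had 28, 19 and 8 counts in polyribosome replicates 1 to 3 and 8, 3 and 2 in total replicates 1 to 3. Pcdh12, known from endothelial cells, had 25, 11 and 10 counts and then 5, 9 and 2. Pcdhb1 had 4, 2 and 3 counts on polyribosomes and 5, 6 and 0 in total RNA, and Pcdha4 had 1, 1 and 0 counts in total RNA and 0 in each polyribosome library. Gm42416 had 0 counts in all 6 libraries, and as it has no exon base of its own, its level could not be measured. A count of 0 allows up to 2.88 CPM in total replicate 3 and up to 0.406 CPM in polyribosome replicate 1, at 3 counts and for counting error only.

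The changes ran along with base composition. The longest transcripts of the 21 Pcdhg genes had a GC content of 51.0 to 55.4%, including the shared exons. Those of the 12 tested Pcdha genes had 46.5 to 49.8%, and those of the 21 tested Pcdhb genes 39.1 to 49.0%. The 11 tested non-clustered genes spanned 36.3% in Pcdh11x to 60.6% in Pcdh1, with Pcdh8 at 59.3%. Across genes, the Pearson correlation of GC content and log2 fold change was 0.77 over the 65 protocadherin genes. It was 0.76 over the 54 clustered and 0.81 over the 11 non-clustered ones, beside 0.54 over 12238 genes with a GC value. The Spearman rank correlations were 0.82, 0.83, 0.64 and 0.54 in the same order. All points share the same 6 libraries, and genes of the alpha and of the gamma family share exons, so that these values are a description and carry no test.

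Pcdh8, a GC-rich gene with the highest log2 fold change of the non-clustered genes, and Pcdh11x, the gene of lowest GC content, are shown by the start of their coding sequences. Both are 150 bases of GRCm38 from Gencode vM21, with the start codon in capitals. They lie at chr14:79770972-79771121 on the minus strand, with 58.0% GC, and at chrX:120364830-120364979 on the plus strand, with 48.0% GC. Over the whole coding sequence the GC content was 64.6% in Pcdh8 and 44.1% in Pcdh11x.
Pcdh8: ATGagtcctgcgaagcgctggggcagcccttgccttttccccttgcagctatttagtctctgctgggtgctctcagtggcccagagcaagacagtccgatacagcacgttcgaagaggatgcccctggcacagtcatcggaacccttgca
Pcdh11x: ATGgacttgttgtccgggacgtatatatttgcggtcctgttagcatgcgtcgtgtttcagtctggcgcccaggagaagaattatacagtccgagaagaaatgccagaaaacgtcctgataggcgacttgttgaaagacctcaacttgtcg

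With an offset for GC content and exon length added to the blocked fit, the families moved closer together. The offset used the whole longest transcript and all exons of a gene, including the shared exons of Pcdha and Pcdhg genes. Whether the shared exons contributed to their counts was not tested. The median log2 fold change was 0.47 for the Pcdhg genes, 0.31 for the Pcdha genes, 0.11 for the Pcdhb genes and 0.39 for the non-clustered genes. All 21 Pcdhg genes stayed positive, as did 11 of 12 Pcdha, 17 of 21 Pcdhb and 10 of 11 non-clustered genes, where 50.4% of all genes were positive. This fit called 17 protocadherin genes higher and 0 lower, against 8.6 and 7.03% of all genes. The 17 were 8 Pcdhg genes, 3 Pcdha genes and 6 non-clustered genes.

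Pcdhgc3 (0.68, adjusted p = 4.7e-07), Pcdh8 (0.92, adjusted p = 3.41e-12) and Pcdh1 (0.44, adjusted p = 0.00248) remained higher in that fit. Pcdhgb1 (0.51, adjusted p = 0.0267) and Pcdhgb2 (0.57, adjusted p = 0.0148) were no longer called, with values close to those of the block alone. The genes called with the offset and not with the block alone were Pcdh10 (0.78), Pcdh17 (0.58), Pcdh7 (0.53), Pcdh20 (0.38), Pcdha3 (0.73), Pcdha12 (0.55) and Pcdhac2 (0.38). For the genes with negative values the offset ended the call: Pcdh15 became -0.18 (adjusted p = 0.335) and Pcdh11x 0.22 (adjusted p = 0.192), the latter with a change of direction. The calls of Pcdh15 and Pcdh11x and the direction of Pcdh11x thus depended on whether GC content and length were modelled. So did the size of the gaps from the Pcdhg genes to the Pcdhb, Pcdha and non-clustered genes. The Pcdhg and non-clustered medians were 0.50 and 0.16 with the block, and 0.47 and 0.39 with the offset added.

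**Figure D5:**
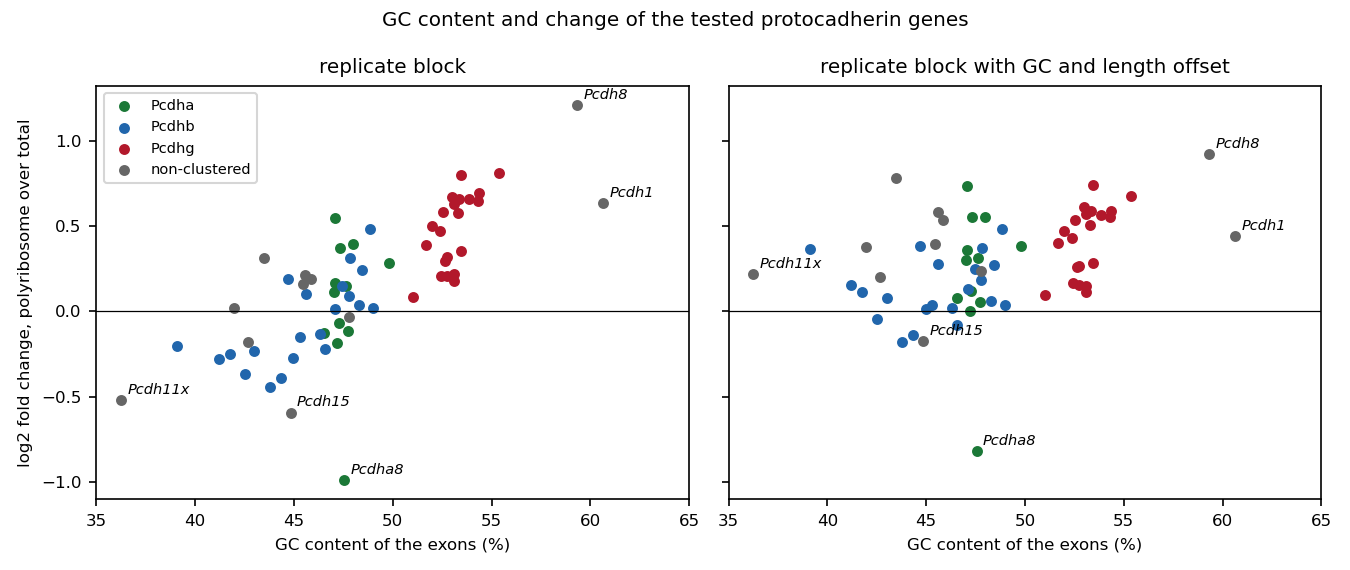
GC content of each gene's longest transcript in percent (x axis) against the log2 fold change of polyribosome over total (y axis). The 65 tested genes are shown by family, with the replicate block (left) and with the GC and length offset added to it (right). Pcdh11x, at 36.3% GC, moves from -0.52 to 0.22, while Pcdh8, at 59.3% GC, stays at the top with 1.21 and 0.92.

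Other genes of the protocadherin and cadherin systems were read from the same test, in lists of known function. Their calls stand beside 0.71% of all genes higher and 2.36% lower without the block, and 11.8 and 13.2% with it. Classical cadherins, the calcium-dependent adhesion molecules of cell junctions, had a median log2 fold change of 0.18 over 15 genes, and 0 were called in either direction by edgeR without the block (1 higher at an unadjusted p under 0.05). The most abundant were Cdh2 (N-cadherin) at 0.31, Cdh13, an atypical cadherin kept in this list, at 0.34, Cdh11 at 0.09 and Cdh8 at -0.20. With the block 1 gene was called, Cdh4, which was higher at 0.58. The 6 catenins, which link cadherins to actin, had a median of 0.34 and 0 calls in the same test (2 higher and 1 lower at an unadjusted p under 0.05). With the block Ctnna1 (0.73, adjusted p = 2.02e-06) and Jup (0.64, adjusted p = 0.000313) were higher, and the abundant beta-catenin gene Ctnnb1 was at 0.37 (adjusted p = 0.015).

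The 13 large atypical cadherins, which include the Fat, Dachsous, Celsr and calsyntenin genes, had a median of 0.25 and 0 calls in edgeR's test without the block (6 higher and 1 lower at an unadjusted p under 0.05). With the block 6 were higher and 1 lower. Clstn1, a calsyntenin of the postsynaptic membrane and the most abundant of the list, averaged 2123 CPM in total RNA and 3224 on polyribosomes, a log2 fold change of 0.60 (adjusted p = 0.0369 without the block and 7.95e-05 with it). Clstn3 was at 0.66, Celsr2 at 0.42, and Fat3 at -0.50 (adjusted p = 0.000579 with the block, the gene called lower).

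Of the 13 listed regulators of clustered promoter choice, such as CTCF, the cohesin subunits and chromatin silencers, 12 were in the table and 11 were tested. Their median was -0.22, and 2 were called lower and 0 higher. Stag1, a cohesin subunit, averaged 48.8 CPM in total RNA and 22.7 on polyribosomes, a log2 fold change of -1.13 (SE 0.20, adjusted p = 0.00386). Smchd1, a chromosomal silencing protein, averaged 37.9 and 20.9 CPM, a log2 fold change of -0.87 (SE 0.19, adjusted p = 0.00995). Nipbl, the cohesin loader, was called lower as well with the block (-0.72, adjusted p = 2.98e-06), while Ctcf was at -0.02 (adjusted p = 0.943) and Rad21 at -0.21 (adjusted p = 0.444).

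The 23 proteases and cytoplasmic partners, among them the sheddase Adam10, gamma-secretase subunits, focal adhesion kinases and the WAVE complex, had a median of 0.00 and 0 calls in edgeR's test without the block (4 higher and 5 lower at an unadjusted p under 0.05). With the block 3 were higher (Ncstn, Src and Nlgn2) and 5 lower (Ptk2, Wasf1, Abi2, Nckap1 and Nlgn1), where 11.8% of all genes were higher and 13.2% lower. Ptk2, the focal adhesion kinase inhibited by the constant domains of alpha and gamma protocadherins, had the smallest adjusted p of the list without the block, at -0.54 (adjusted p = 0.0322). Of the WAVE complex genes, Nckap1 was at -0.55 and Abi2 at -0.62 with the block, both past the threshold. Without the block they were at -0.54 and -0.61 and did not pass. The abundant Cyfip2 was at -0.31 (adjusted p = 0.0398 with the block).

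Markers of several non-neuronal cell types had values of the same sign as the Pcdhg genes. All 9 astrocyte markers had positive values, with a median log2 fold change of 0.54. Their sum was 34390 to 40280 CPM in total RNA and 44710 to 49070 CPM on polyribosomes, none was at 0 in any library, and 6 of 9 were called higher with the block. Without it edgeR called 0, with 6 at an unadjusted p under 0.05. Of all genes tested, 50.1% had positive values, and 11.8% were called higher with the block and 0.71% without it. At that unadjusted p, 15.4% were higher. All 4 choroid plexus markers were positive without the block (median 0.63, sums of 277 to 494 and 489 to 932 CPM). Ttr was at 0.81 without the block and 0.80 with it (adjusted p = 1.14e-07 with the block). Kl was at 0.02 without the block and -0.08 with it. Without the block, all 6 oligodendrocyte (median 0.38), 3 precursor (0.28) and 7 microglial (0.36) markers were positive too, as were 4 of 6 endothelial markers (0.21). The microglial marker Aif1 was at 0.11 there and at -0.06 with the block. Excitatory neuron markers had a median of -0.11, with 2 of 5 positive, and inhibitory neuron markers one of 0.36, with 3 of 5 positive. The part of these cell types in the protocadherin values was not tested.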

How the data were processed

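RNA was sequenced from 3 polyribosome and 3 total libraries. Per the study's methods the authors removed ribosomal RNA, made dUTP strand-specific libraries, aligned reads to GRCm38 with STAR (2.5.2b in the submitters' processing notes) and assigned them to genes of Gencode vM6. They deposited raw whole-number counts per gene. The deposited table also carries columns of the authors' DESeq2 comparison, namely a mean signal, log2 fold changes and their errors, a test score and p-values. These columns were not used. Whether counting used the strand, and how ambiguous reads were treated, is not given in the sources used here.

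Counts were analysed with edgeR 4.0.16 in R 4.3.3, using TMM normalization, filterByExpr (12255 genes kept), a quasi-likelihood fit on group alone, Benjamini-Hochberg adjustment over all genes, and a threshold of 0.01. Standard errors are the absolute log2 fold change over the square root of F. Log2 ratios of single genes within pairs used a prior count of 2, and those of family sums used none. Exon lengths, sharing and GC content, the last of each gene's longest transcript, came from Gencode vM21. It had exons for all 70 members, 68 of them at the same coordinates, and GC content for 99.0% of the table. Replicate numbers were taken to pair the samples, because preparations were divided into aliquots, both libraries of a number carry the same label in the table, and same-numbered libraries deviated together (correlations of 0.37, 0.26 and 0.38 across genes). Alternatives were the replicate as a block, that block with an offset for GC content and length (splines with 5 degrees of freedom), DESeq2 1.42.0, other normalizations, no filter, and leaving out each library. The offset without the block was added after seeing the data. The procedure was tested on simulated counts. Replicates differed by more than sampling noise.

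Named genes were all non-clustered and C-type genes, genes past the threshold, in each cluster the most abundant gene and those with the lowest and highest log2 fold change, and up to 4 genes of each other list, called genes before abundant ones. Genes named because a single alternative called them, and Ctcf, were chosen after their values were seen. The members and lists were chosen with earlier results of these data known.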

Additional observations from a re-analysis of the deposited data

How the results depend on the processing

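The number of protocadherin genes called was set by the model. Against 1 higher and 0 lower, the replicate block gave 12 higher and 2 lower, the GC and length offset with the block 17 higher and 0 lower, the offset without the block 0 higher, scaling by total counts 0 higher, no expression filter 4 higher, and DESeq2 3 higher (Pcdh8, Pcdh1 and Pcdhgc3). Leaving out each library gave 0 to 1 higher and 0 lower. Over all genes, the higher and lower calls were 1441 and 1622 with the block and 1054 and 862 with the offset and block, of 12255 genes. They were 23 and 70 with the offset alone and 42 and 366 with total counts, of the same 12255 genes. Without the filter they were 476 and 566 and with DESeq2 321 and 372, each of 16736 genes. Leaving out each library gave 0 to 61 higher and 22 to 208 lower over all genes.

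Scaling by total counts shifted the median of all genes to -0.11, and gave medians of 0.033 for Pcdha, -0.18 for Pcdhb and 0.41 for Pcdhg genes and log2 ratios of the sums of 0.54 for Pcdhg and 0.18 for non-clustered genes. The offset with and without the block gave medians of 0.31 and 0.32 for Pcdha, 0.11 and 0.18 for Pcdhb, and 0.39 and 0.39 for non-clustered genes. Leaving out single libraries gave medians from 0.11 to 0.34 for clustered, 0.041 to 0.30 for non-clustered, 0.07 to 0.18 for Pcdha, -0.20 to 0.018 for Pcdhb and 0.44 to 0.65 for Pcdhg genes, and log2 ratios of the sums from 0.49 to 0.74 for Pcdhg and 0.24 to 0.36 for non-clustered genes. The cause of these shifts was not tested. All 21 Pcdhg genes were positive in each of these settings. The depth of total replicate 3 limits genes with few counts, such as Pcdha8 and Pcdhac1, and 3 replicates a group limit the unpaired test.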
